A study of Homo sapiens with 6 samples.

Results

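The transcripts described here are those of the sensors of the unfolded protein response (UPR) and of the proteins that process or transmit their signal. The set was chosen by name, without the use of any measured value, as EIF2AK3 (PERK), ERN1 (IRE1), ATF6, ATF6B, MBTPS1 (S1P), MBTPS2 (S2P), XBP1, RTCB and TRAF2. Of these 9 genes, 8 had at least 1 probe set that was annotated to that gene alone, which gave 20 probe sets out of 54675 on the array and 8 of 19775 genes. TRAF2, which couples IRE1 to the JNK kinases, had none in the annotation used and was not analysed here. The cells were Daoy, an established human line from a medulloblastoma, a tumour of the cerebellum. They were left untreated, or were treated for 3 h or 8 h with 1 µM thapsigargin (Tg), which blocks the calcium pump of the endoplasmic reticulum (ER). There were 2 arrays in each of the 3 groups, which the labels number replicate 1 and replicate 2, and the labels name no genetic change in any group. According to the study's methods the arrays came from separate experiments, while the labels do not say which arrays shared an experiment. Each p-value rests on the scatter of 2 arrays in each group. Each array read RNA from a whole culture, in which fewer cells that carry a transcript and less of it per cell cannot be told apart.

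Proteins that fold poorly in the ER are detected by transmembrane sensors, each of which sends a different signal. PERK phosphorylates the initiation factor eIF2α and slows translation, IRE1 cuts the XBP1 mRNA, which the RTCB ligase then rejoins, and ATF6 moves to the Golgi, where S1P and S2P release its transcription factor domain. Most of this control acts on the proteins or, for XBP1, on splicing, and the arrays measured neither: the values below are the abundance of each mRNA as a signal intensity.

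All 6 arrays had been scaled by the authors to the same trimmed mean. The replicate 1 arrays nonetheless stood apart from the replicate 2 arrays in their controls: the hybridization controls were at 7762 to 11671 and 2718 to 2840, and 18S rRNA was at 718 to 1146 and 2608 to 4272, with replicate 1 given first. For this reason each result is given from limma without a block, from limma with the replicate number as a block where that changed the call, and within each number. Of 10 markers of medulloblastoma and neural progenitors, 7 had a signal of at least 100 on every array, among them NES, SOX2, VIM and ZIC1, whereas ATOH1 and MYCN were under 100 on all 6. Their summed signal was 37968 to 60407 in untreated cells, 41948 to 56211 at 3 h and 35852 to 47639 at 8 h. The astrocyte markers were under 100 on every array (3 of 3), no immune marker reached 100 on 2 arrays (0 of 3), and 3 of 4 fibroblast markers (COL1A1, COL1A2 and LUM) were above 100 on all 6, with a summed signal of 25115 to 34652 in untreated cells, 19712 to 28329 at 3 h and 18973 to 31873 at 8 h. Of 5 neuronal markers, TUBB3 and MAP2 were above 100 on all 6 arrays and SYP and RBFOX3 were below it on all 6, and the summed signal was 14028 to 21252 in untreated cells, 13751 to 15672 at 3 h and 10517 to 14570 at 8 h. Of 4 endothelial markers, PECAM1 reached 100 on 3 arrays and KDR on 5, with a summed signal of 289.8 to 332.3 in untreated cells, 229.3 to 457 at 3 h and 238 to 323.2 at 8 h. The part of these differences in the results below was not tested.

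After 8 h of Tg, 1 of the 8 genes passed an adjusted p of 0.05 in limma, and that gene was EIF2AK3, which rose 4.46-fold. Over all 12839 genes tested, 0.646% were higher by the same criterion and 0.21% were lower. With the replicate number as a block, EIF2AK3, ERN1 and XBP1 passed as higher (3 of 8, against 4.76% of all genes), and 0 of 8 passed as lower (3.79% of all genes). Without an adjustment, 4 of 8 genes (ATF6, EIF2AK3, ERN1 and XBP1) were higher at a p under 0.05 in limma, against 5.44% of all genes, and 0 of 8 were lower, against 6.64%. In 4 genes, ATF6, EIF2AK3, ERN1 and XBP1, both Tg arrays lay above both untreated arrays, which 15.3% of all genes did, and in 1, RTCB, both lay below, which 26.7% did. The median log2 fold change was 0.53 over the 8 genes and -0.09 over all genes tested. Neither protease, ATF6, ATF6B nor RTCB was among the genes called in either fit.

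After 3 h, 0 of the 8 genes passed in limma in either direction, and over all genes 0.0701% were higher and 0% were lower. At an unadjusted p under 0.05, EIF2AK3 and XBP1 were higher (2 of 8, against 3.26% of all genes) and 0 of 8 were lower (1.24%). With the block, EIF2AK3 alone passed as higher (1 of 8, against 1.17% of all genes) and none passed as lower (0.0779% of all genes). Both Tg arrays lay above both untreated arrays for ATF6B, EIF2AK3 and XBP1 (3 of 8, against 14% of all genes) and below them for MBTPS2 and RTCB (2 of 8, against 16.5%). Between 8 h and 3 h, none of the genes tested passed in limma (0% higher and 0% lower). At an unadjusted p under 0.05, ERN1 was higher at 8 h (1 of 8, against 2.77% of all genes) and 0 of 8 were lower (5.05%). With the block, ERN1 was higher at 8 h than at 3 h (1 of 8, against 1.53% of all genes) and 0 of 8 were lower (1.72% of all genes). Both 8 h arrays lay above both 3 h arrays for ERN1 and MBTPS2 (2 of 8, against 14% of all genes) and below them for RTCB (1 of 8, against 22.6%). The comparisons of 8 h and of 3 h with untreated cells share the untreated arrays and are not independent.

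**Figure D1:**
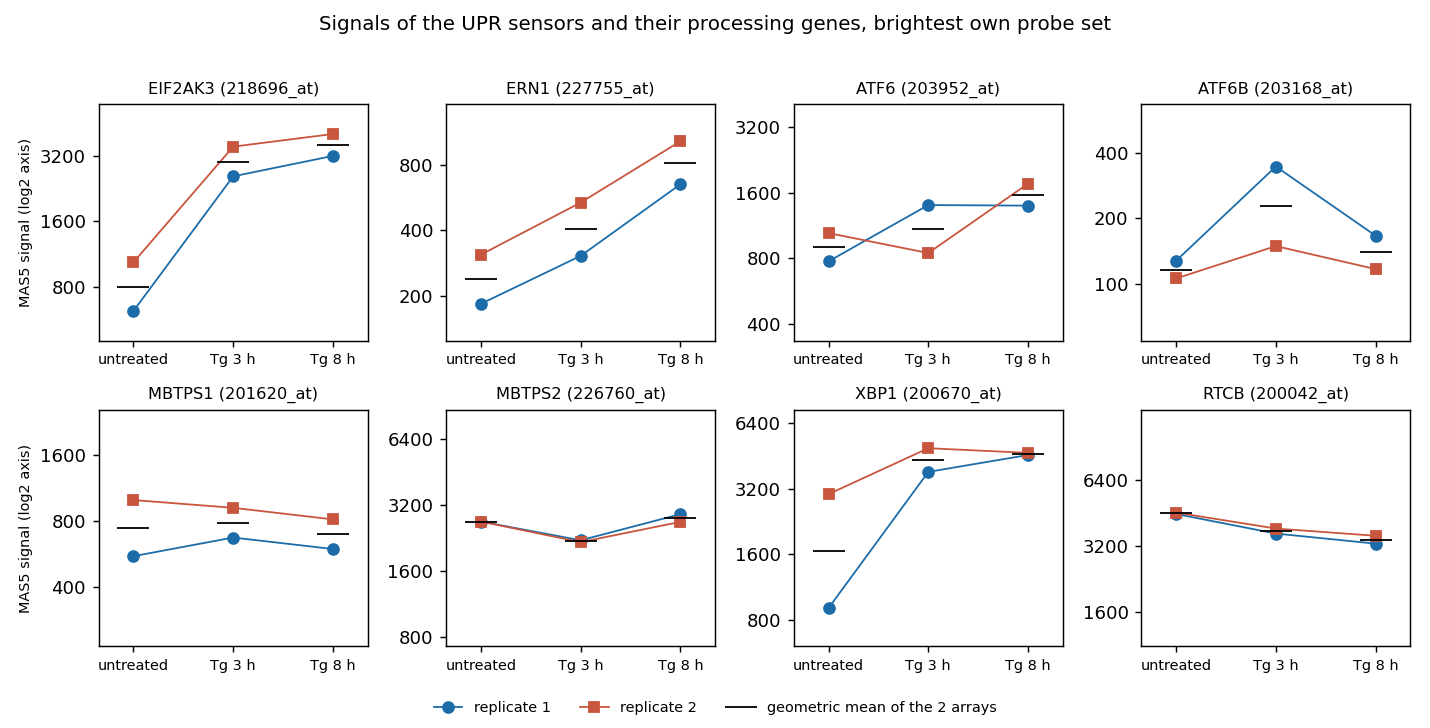
MAS5 signal (log scale) of the brightest probe set of each of the 8 genes on every array, with 1 panel per gene, the groups untreated, Tg 3 h and Tg 8 h from left to right, lines that join the arrays of one replicate number, and a bar at the geometric mean of the 2 arrays. EIF2AK3 is at 2571.6 or more on all 4 Tg arrays and at 621.8 and 1038.5 on the untreated arrays, and the untreated arrays of XBP1 are apart at 907.9 and 3018.

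EIF2AK3 encodes PERK, the kinase that phosphorylates eIF2α. The signal of its brighter probe set (218696_at) was 621.8 and 1038.5 in untreated cells, 2571.6 and 3517.5 at 3 h and 3190.1 and 4019.1 at 8 h (replicate 1, then replicate 2, here and below). Every Tg array lay above both untreated arrays, and the replicate 2 array was the higher one in each group. At 8 h the log2 fold change was 2.16 (SE 0.30, 95% interval 1.47 to 2.84, adjusted p = 0.0279 in limma, n = 2 arrays per group). It was 2.36 within replicate 1 and 1.95 within replicate 2. At 3 h it was already 1.90 (SE 0.30, 95% interval 1.22 to 2.59), 2.05 within replicate 1 and 1.76 within replicate 2, with adjusted p = 0.133 in limma and 0.000293 with the replicate block. The 2 times differed by 0.25 on the log2 scale (95% interval -0.43 to 0.94, adjusted p = 0.968 in limma). The limma call at 8 h was lost on leaving out any 1 array other than untreated replicate 2, with log2 fold changes of 1.79 to 2.32 and adjusted p-values of 0.0518 to 0.169, whereas with the block all 6 such fits kept an adjusted p under 0.05 for it. The other probe set of the gene (241463_at) was dim, between 3.4 and 51.1 on the 6 arrays, and was not tested.

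ERN1 encodes IRE1, a kinase and endoribonuclease. Its brightest probe set (227755_at) gave signals of 184.6 and 310 in untreated cells, 306 and 536.9 at 3 h and 651.1 and 1024.7 at 8 h. Both 8 h arrays were above all 4 other arrays, while the 3 h and untreated arrays overlapped. The log2 fold change at 8 h was 1.77 (SE 0.40, 95% interval 0.85 to 2.70), with adjusted p = 0.131 in limma and 0.00115 with the replicate block. Within replicate 1 it was 1.82 and within replicate 2 it was 1.72. At 3 h it was 0.76 (95% interval -0.16 to 1.68, adjusted p = 1.00 in limma and 0.178 with the block). The step between the times was itself called with the block: ERN1 was 2.02-fold higher at 8 h than at 3 h (log2 1.01, adjusted p = 0.707 in limma and 0.0389 with the block), by 1.09 within replicate 1 and 0.93 within replicate 2. That call was lost with the block on leaving out any 1 of the 4 Tg arrays.

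Of the other ERN1 probe sets, 207061_at gave 26 and 45.2 in untreated cells, 159.9 and 103.8 at 3 h and 176.7 and 121.6 at 8 h. All 4 Tg arrays were above both untreated arrays, which were below the filter of 100. Its log2 fold change was 2.10 at 8 h (adjusted p = 0.314 in limma) and 1.91 at 3 h (adjusted p = 1.00), and was 0.55 and 0.37 when signals under 100 were raised to 100. The probe set 235745_at gave 124.6 and 128.1 in untreated cells, 147.7 and 138.8 at 3 h and 314 and 162.7 at 8 h. Its groups did not overlap, but at 8 h it differed by 1.33 within replicate 1 and by 0.34 within replicate 2, and its log2 fold change of 0.84 did not pass (adjusted p = 0.604 in limma, 0.286 with the block).

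ATF6 encodes the sensor that is itself a precursor of a transcription factor, and 4 probe sets were annotated to it. The brightest on average (203952_at) gave 774.7 and 1043.4 in untreated cells, 1402.5 and 845.7 at 3 h and 1393.9 and 1757.2 at 8 h. The 8 h arrays lay above both untreated arrays, and the 3 h arrays lay on both sides of untreated replicate 2. At 8 h the log2 fold change was 0.80 (SE 0.30, 95% interval 0.11 to 1.49, adjusted p = 0.418 in limma and 0.108 with the block), 0.85 within replicate 1 and 0.75 within replicate 2. At 3 h it was 0.28, with 0.86 within replicate 1 and -0.30 within replicate 2. With the block, the 8 h value passed where Tg 3 h replicate 1 (adjusted p = 0.0150), Tg 3 h replicate 2 (0.0126) or Tg 8 h replicate 1 (0.0434) was left out.

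All 4 probe sets of ATF6 were higher on average at 8 h, by differing amounts, and the differences between probe sets were not tested. The signals of 226941_at were 872.1 and 836.7 in untreated cells, 842.8 and 761 at 3 h and 969.9 and 898.3 at 8 h, a log2 fold change at 8 h of 0.13 with a 95% interval of -0.35 to 0.61. The signals of 217550_at were 234.4 and 239.6 in untreated cells, 538.9 and 274.9 at 3 h and 582.1 and 319.4 at 8 h. Its log2 fold change was 0.86 at 8 h (adjusted p = 0.552 in limma), 1.31 within replicate 1 and 0.41 within replicate 2. The signals of 231927_at were 314.9 and 190.5 in untreated cells, 314.2 and 200.9 at 3 h and 479.9 and 252.7 at 8 h, and its log2 fold change was 0.51 (adjusted p = 0.798). The Tg arrays of 217550_at lay above its untreated arrays at both times, those of 226941_at were above them at 8 h only, and those of 231927_at overlapped with them at both times.

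ATF6B encodes a relative of ATF6 that is cleaved in the same manner. Of its 3 probe sets, 1 (203168_at) was tested, with signals of 127.9 and 106.1 in untreated cells, 345.4 and 149.3 at 3 h and 166.6 and 117.1 at 8 h. The 3 h arrays were above the untreated ones and the 8 h arrays overlapped with them. The log2 fold change was 0.96 at 3 h (1.43 within replicate 1, 0.49 within replicate 2, adjusted p = 1.00 in limma) and 0.26 at 8 h (95% interval -0.93 to 1.45). The signals of the other probe sets were under 100 on every array but 1 and had no test: 216208_s_at was between 10.6 and 135, and 1554487_a_at was between 5.5 and 52.2. A further probe set was shared with TNXB and was not used.

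**Figure D2:**
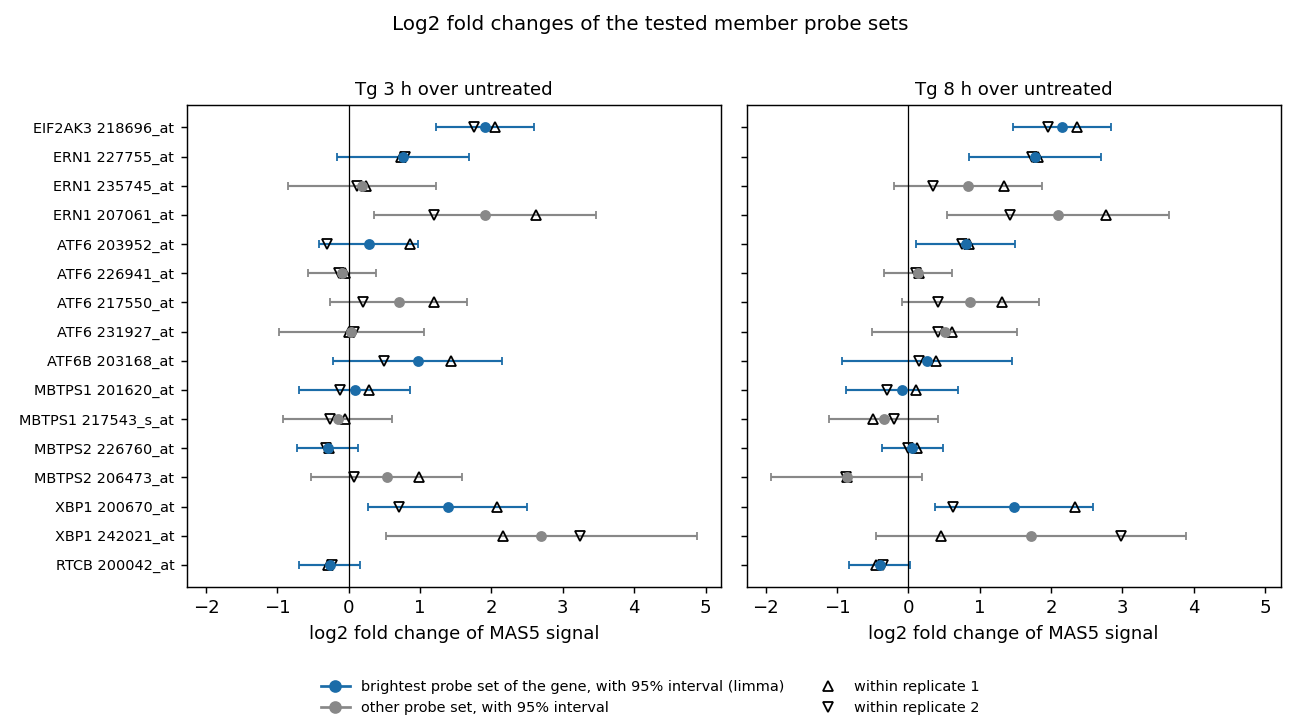
Log2 fold change of MAS5 signal for each of the 16 probe sets tested, with 95% intervals from limma and the values within replicate 1 and replicate 2 as open triangles, for Tg 3 h over untreated (left) and Tg 8 h over untreated (right). The 8 h interval of EIF2AK3 runs from 1.47 to 2.84, and the probe sets of MBTPS1, the brighter one of MBTPS2 and 226941_at of ATF6 lie near 0.

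MBTPS1 and MBTPS2 encode the Golgi proteases S1P and S2P, which cut ATF6 in turn. The brighter probe set of MBTPS1 (201620_at) gave 550.7 and 995 in untreated cells, 670.3 and 917.4 at 3 h and 594 and 811.5 at 8 h. All 3 groups overlapped, and the 2 arrays of each group were further apart than the groups were. The log2 fold change was -0.09 at 8 h (95% interval -0.87 to 0.69) and 0.08 at 3 h (95% interval -0.70 to 0.86). The other probe set of MBTPS1 (217543_s_at) gave 364.8 and 491.5 in untreated cells, 353.2 and 407.9 at 3 h and 259.1 and 429 at 8 h, a log2 fold change of -0.34 at 8 h (95% interval -1.11 to 0.42).

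The brightest MBTPS2 probe set (226760_at) gave 2689.8 and 2691.2 in untreated cells, 2208.8 and 2166.6 at 3 h and 2910.1 and 2682.8 at 8 h. The 3 h arrays lay below all 4 other arrays and the 8 h arrays overlapped with the untreated ones. At 3 h the log2 fold change was -0.30 (95% interval -0.72 to 0.13, adjusted p = 1.00 in limma and 0.404 with the block), and at 8 h it was 0.05 (95% interval -0.37 to 0.48). The difference between the times was 0.35 (adjusted p = 0.821 in limma, 0.210 with the block). The dimmer probe set 206473_at went the other way, with 136.2 and 166 in untreated cells, 270.3 and 174.6 at 3 h and 75.2 and 90.2 at 8 h. Its 8 h arrays were the lowest of the 6 and its 3 h arrays the highest, and no comparison passed. The dimmest probe set (1554604_at) was between 6 and 153, was at least 100 on only 1 array and was not tested, and 1 more was shared with YY2 and was not used.

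XBP1 encodes the transcription factor whose mRNA IRE1 cuts. Its brighter probe set (200670_at) gave 907.9 and 3018 in untreated cells, 3816.6 and 4899.3 at 3 h and 4560 and 4663.2 at 8 h. All 4 Tg arrays were above both untreated arrays, and the untreated arrays differed from each other by more than any pair of Tg arrays did. The log2 fold change at 8 h was 1.48 (SE 0.48, 95% interval 0.37 to 2.59), with adjusted p = 0.321 in limma and 0.0242 with the replicate block, and at 3 h it was 1.39 (adjusted p = 1.00 in limma, 0.102 with the block). It was 2.33 at 8 h and 2.07 at 3 h within replicate 1, and 0.63 at 8 h and 0.70 at 3 h within replicate 2. Without untreated replicate 1 the 8 h value was 0.61 (adjusted p = 0.781 in limma), and 0.71 with the block (adjusted p = 0.0849), and without untreated replicate 2 it was 2.34 (adjusted p = 0.0123 in limma). The call with the block was also lost without Tg 8 h replicate 1 (0.97, adjusted p = 0.0509). At 3 h, XBP1 passed with the block where untreated replicate 2 or either 8 h array was left out. Against untreated cells, XBP1 was higher at both times in every fit with 1 array left out.

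Untreated replicate 1 was also below untreated replicate 2 for some other genes of the pathway, and above it for others. ATF4, a transcription factor translated when eIF2α is phosphorylated, had signals of 4504.9 and 20998.9 in untreated cells, and TRIB3, a pseudokinase gene it induces, had 839.9 and 7879.1. HERPUD1, a target of XBP1 or ATF6, had 1376.1 and 6623.3, whereas PPP1R15B, on the PERK arm list below, had 2541.9 and 3274.4. The order was the other way for SDF2L1 (1258.9 and 593.4) and MANF (4664 and 3133.4), which are also targets of XBP1 or ATF6. With 2 untreated arrays it cannot be told which of them was unusual. The part of this difference in the XBP1 values was not tested. These values were looked up after those of XBP1 had been seen.

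The dimmer XBP1 probe set (242021_at) gave 59.2 and 12.4 in untreated cells, 264.3 and 116.9 at 3 h and 81 and 98.1 at 8 h. All Tg arrays were above the untreated ones, but 4 of the 6 arrays were under 100. Its log2 fold change was 1.72 at 8 h (adjusted p = 0.614 in limma) and 2.70 at 3 h (adjusted p = 1.00), and was 0.00 at 8 h and 0.81 at 3 h when signals under 100 were raised to 100. Averaging the tested probe sets of each gene moved the XBP1 estimate to 1.60 at 8 h (adjusted p = 0.0314 in limma) and to 2.04 at 3 h (adjusted p = 0.0422). Both of these calls rest in part on the dimmer probe set, since the brighter one alone did not pass in limma at either time.

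The XBP1 promoter was the only one of the set to carry the full ER stress response element, the binding site of ATF6 with the factor NF-Y. Promoter windows of 250 bases before to 50 after each start were taken from RefSeq (GRCh38.p14), with 10 windows for the 9 genes, 2 of them for XBP1. The element, CCAAT, any 9 bases and then CCACG, searched on both strands, was in 27 of 35116 windows (0.0769%) and in 1 of the 10, where it begins at position -52 from the XBP1 start. Its parts are common: CCAAT was in 34.6% of all windows and in 6 of the 10 (ATF6B, EIF2AK3, ERN1, RTCB, TRAF2 and XBP1), and CCACG was in 38.1% and in 5 of the 10 (EIF2AK3, MBTPS1, TRAF2 and both of XBP1). A second form, ATTGG, any 1 base and then CCACG (0.0541% of windows), the UPR element core TGACGTGG (0.729%) and an amino acid response element core, TGATGNAA (3.62%), were in 0 of the 10. The bases from -110 to -1 are given here for XBP1 and for the sensors of the 3 arms. CCAAT or CCACG on either strand is in capitals, so that the XBP1 element can be read beside the others. Outside this stretch, the EIF2AK3 window also held CCAAT on either strand at -232, -194 and -139, and CCACG at position 42. The XBP1 window with the element also held CCACG at -146 and -128. The printed stretches lie at chr22:28800570-28800679 (minus strand) for XBP1, chr2:88627465-88627574 (minus) for EIF2AK3, chr17:64130145-64130254 (minus) for ERN1 and chr1:161766210-161766319 (plus) for ATF6. A match is a description of the letters, and binding was not measured.
XBP1: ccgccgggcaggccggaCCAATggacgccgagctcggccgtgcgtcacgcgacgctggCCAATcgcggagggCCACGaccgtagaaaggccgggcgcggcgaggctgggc
EIF2AK3: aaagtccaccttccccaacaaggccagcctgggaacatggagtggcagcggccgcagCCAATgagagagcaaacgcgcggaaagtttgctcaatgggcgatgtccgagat
ERN1: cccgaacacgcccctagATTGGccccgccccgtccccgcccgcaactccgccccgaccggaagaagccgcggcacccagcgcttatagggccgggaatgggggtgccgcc
ATF6: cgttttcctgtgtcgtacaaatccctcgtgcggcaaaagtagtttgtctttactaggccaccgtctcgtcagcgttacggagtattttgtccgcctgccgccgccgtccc

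RTCB encodes the tRNA ligase that joins the cut ends of tRNAs and of the XBP1 mRNA. Its 1 probe set (200042_at) gave 4480 and 4544.9 in untreated cells, 3644.6 and 3842.7 at 3 h and 3276.6 and 3559.6 at 8 h. The Tg arrays were below the untreated ones at both times, and the 8 h arrays were below the 3 h arrays, with the replicate 2 array the higher one in each group. The log2 fold change was -0.40 at 8 h (fold 0.757, SE 0.19, 95% interval -0.83 to 0.03), -0.45 within replicate 1 and -0.35 within replicate 2, and it did not pass (adjusted p = 0.532 in limma, 0.0816 with the block). At 3 h it was -0.27 (adjusted p = 1.00 in limma, 0.420 with the block). Both 8 h arrays lay below both untreated arrays in 26.7% of all genes, so this order is common on these arrays.

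The other genes of the pathway were read from 7 lists, and most of the genes called at 8 h were on 2 of them. Over all genes tested at 8 h, 0.646% were higher and 0.21% lower in limma. With the block these shares were 4.76% and 3.79%. Of 16 targets of XBP1 or ATF6, 11 were higher and 0 lower in limma, and 15 were higher with the block, with a median log2 fold change of 2.39 against -0.09 over all genes. SDF2L1, an ER chaperone cofactor, had a log2 fold change of 4.13 (adjusted p = 0.00726), DNAJB9, an ER co-chaperone that binds IRE1, had 3.37 (adjusted p = 0.00371) and SEC24D, a coat protein of ER-derived vesicles, had 2.65 (adjusted p = 0.0217), all in limma. Of 14 negative regulators of the sensors that were tested (16 listed), 4 were higher and 0 lower, and 9 were higher with the block, with a median of 0.77. They include DNAJB9, which is on both lists, and SEL1L (2.70, adjusted p = 0.00536 in limma), an adaptor of ER-associated degradation. DNAJC3 (2.27, adjusted p = 0.00628 in limma), an inhibitor of PERK, is another. NCK1, higher with the block only, is also on the PERK arm list. BAX and BAK1, with log2 fold changes of -0.10 and 0.10, were counted on this list but do not inhibit the sensors. At 3 h, 2 targets and 2 negative regulators were higher in limma, and 10 and 5 with the block, against 0.0701% and 1.17% of all genes. Between 8 h and 3 h none passed in limma, and 10 targets and 3 negative regulators were higher with the block, against 1.53% of all genes. Several genes of these lists were known from earlier results of the same arrays, so the counts are not independent evidence of a direction.

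Fewer genes were called on the other lists, to be read against the same shares over all genes. The PERK arm list of 11 genes also holds other eIF2α kinases. At 8 h, 1 of the 11 was higher and 0 lower in limma, and 4 were higher with the block. The 1 was DDIT3 (CHOP), a transcription factor of prolonged ER stress, with 405.4 and 1654.4 in untreated cells, 19271.4 and 15024.5 at 3 h and 20008.8 and 15123 at 8 h. Both of its Tg groups were far above the untreated arrays, and its log2 fold change at 8 h was 4.41 (SE 0.56, adjusted p = 0.0211 in limma). The PERK list had a median of 0.50, which was 0.75 within replicate 1 and 0.29 within replicate 2. The kinases on it that are not part of the PERK arm are EIF2AK1, EIF2AK2 and EIF2AK4. Their log2 fold changes at 8 h were -0.23, -0.31 and -0.60, so the median is not that of the PERK arm alone. At 3 h, 0 genes of the list passed in limma and 3 were higher with the block. Of 10 genes of the IRE1 kinase arm that were tested (14 listed), 0 passed in limma and 1 was lower with the block (3.79% of all genes). It was TRAF5, an adaptor of the TRAF2 family, with 491.7 and 465.5 in untreated cells, 502.1 and 437.6 at 3 h and 205.3 and 268.2 at 8 h. Only its 8 h arrays were apart from the rest, and its log2 fold change of -1.03 had adjusted p = 0.206 in limma and 0.0358 with the block. The median of that list was -0.03.

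Of 12 other substrates and partners of the S1P and S2P proteases that were tested (13 listed), 0 passed at 8 h in limma and 2 were higher with the block, with a median of 0.02. The larger was CREB3L2, an ER-bound transcription factor released by the same proteases, with 1079.8 and 1237.8 in untreated cells, 2485.5 and 1666.4 at 3 h and 3030.7 and 2841.8 at 8 h. Its Tg arrays were above the untreated ones at both times, and at 8 h the log2 difference was 1.34 (adjusted p = 0.0664 in limma, 0.00251 with the block). At 3 h, 1 gene of the list was higher with the block. Of 9 genes of the tRNA ligase complex and related RNA ends, and of 8 cofactors of ATF6 and XBP1 on DNA, 0 passed at any time in either fit, and their medians at 8 h were 0.17 and -0.13.

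**Figure D3:**
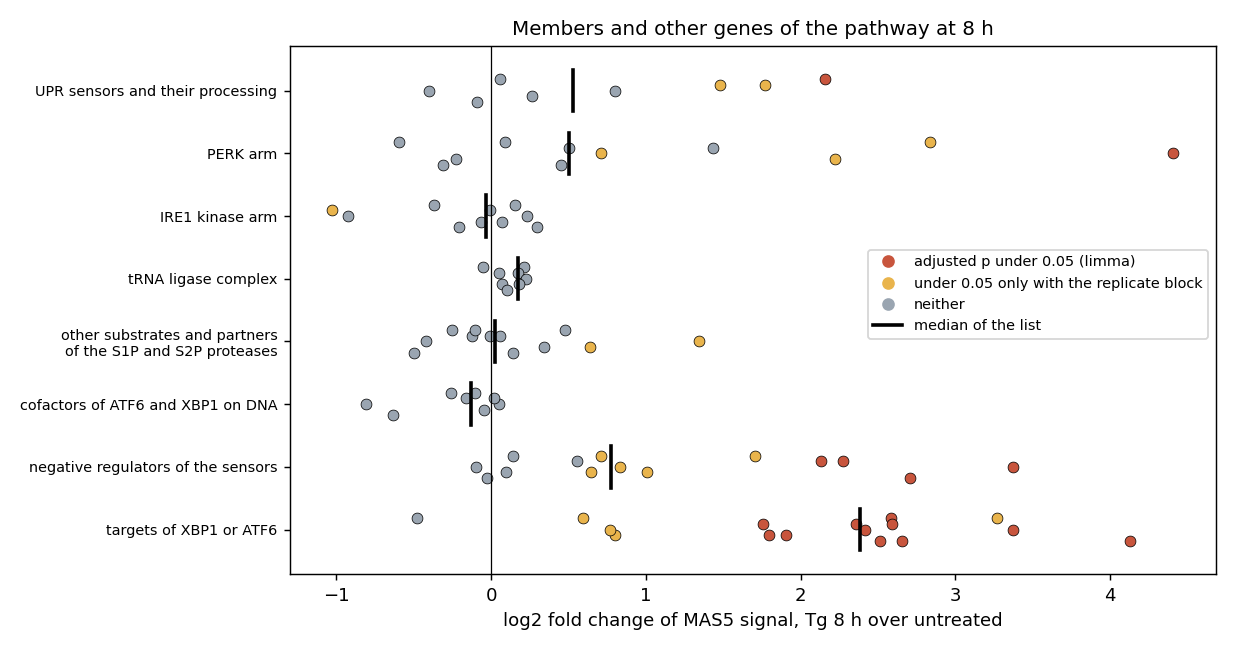
Log2 fold change of MAS5 signal at Tg 8 h over untreated for the 8 genes described here (top row) and for each gene of the 7 lists, with 1 point per gene, the list's median as a bar, and colour for an adjusted p under 0.05 in limma, only with the replicate block, or in neither. The targets of XBP1 or ATF6 have a median of 2.39, and the cofactors on DNA a median of -0.13.

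The genes with the pattern nearest to each of 4 members over the 6 arrays were found among 7991 genes whose mean signal reached 500 in some group, by the root-mean-square (RMS) difference of log2 signals after each gene's own mean had been taken off. For EIF2AK3 they were MAFF (0.169), PPP1R15A (0.174) and SPRY4 (0.188), against an RMS spread of EIF2AK3 itself of 0.999. For ERN1, with a spread of 0.815, they were HSPBAP1 (0.187), FBXO32 (0.203) and NAMPT (0.218). For XBP1, with a spread of 0.847, they were LURAP1L (0.134), VEGFA (0.226) and STC2 (0.237). For ATF6, with a spread of 0.423, they were PABPC1L (0.160), SPTY2D1 (0.189) and TRIM38 (0.195), which is a looser likeness relative to its spread. The genes near XBP1 shared its low untreated replicate 1, which follows in part from choosing them on the same 6 arrays. VEGFA, a secreted growth factor of blood vessels, had 1854.4 and 6031 in untreated cells, 5812.3 and 7859.7 at 3 h and 10978.9 and 9600.9 at 8 h.

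**Figure D4:**
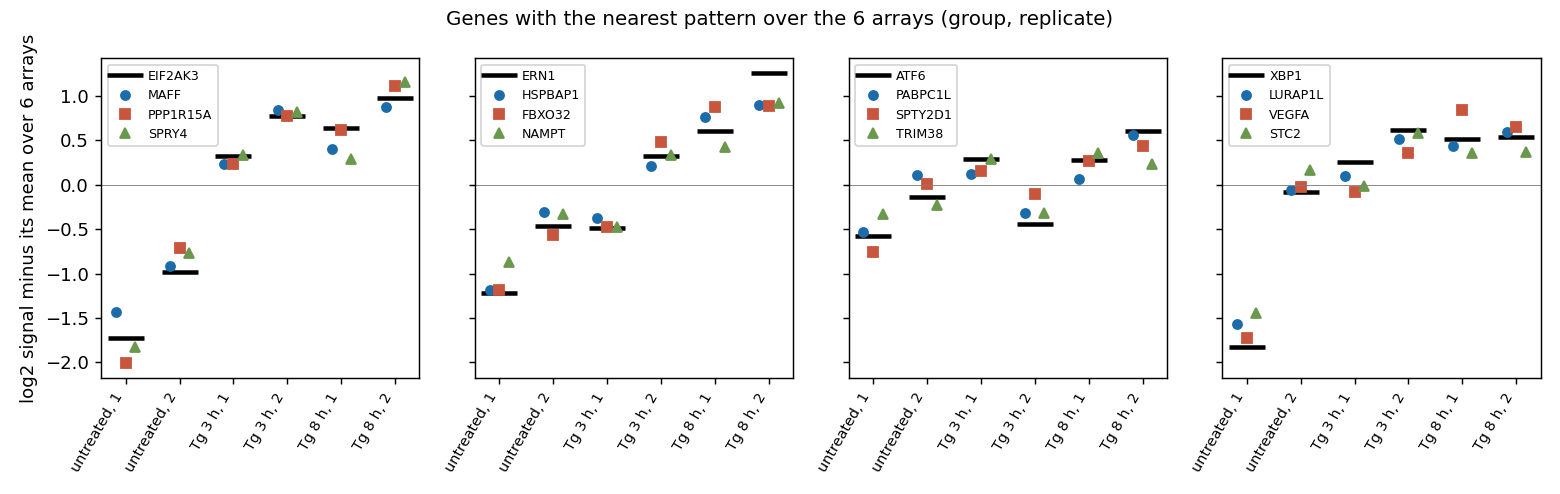
Log2 MAS5 signal minus its mean over the 6 arrays for EIF2AK3, ERN1, ATF6 and XBP1 (black bars) and the 3 genes nearest to each (coloured points), by array, in the order untreated, Tg 3 h and Tg 8 h with replicate 1 and then replicate 2. The lowest value of XBP1 is untreated replicate 1 (signal 907.9), and its 3 neighbours, chosen on these same arrays, are lowest there too.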

How the data were processed

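RNA of untreated Daoy cells, and of Daoy cells 3 h or 8 h into treatment with 1 µM thapsigargin, was hybridised to 6 HG-U133 Plus 2.0 arrays, 2 per group. The values the authors deposited are MAS5 signal intensities on a linear scale, which they had scaled to a trimmed mean (2% trimmed) of 500. A genome build was not given in the sources used here. Of the probe sets, 41097 had 1 gene symbol, 1801 had several and 11777 had none in the platform annotation given, and RefSeq names changed 0 of the symbols. There were 0 other columns of sample values.

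Signals were log2-transformed, and probe sets that reached a signal of 100 on 2 or more arrays (27616) were fitted with limma 3.58.1 in R 4.3.3, with an intensity trend and all 6 arrays, two-sided, with Benjamini-Hochberg adjustment over all of them and a threshold of 0.05. A gene was read from its brightest probe set. For the pathway lists, the genes named were up to 3 with the largest change past the threshold at 8 h, or the 1 largest past it with the block. The pathway lists, and so the genes named from them, were chosen with earlier results of these data known. Alternatives were the replicate block, the local pooled error test (written from its definition), no intensity trend, centring on the median, quantile normalization and other filters. Further ones were a floor of 100, the mean of a gene's tested probe sets, the 4 arrays compared alone, and leaving out each array. Leaving out each array together with the block was an alternative chosen after seeing the data. The fits were tested on simulated data. Deviations from the group mean of arrays with the same replicate number correlated by 0.26 to 0.32 over the tested probe sets and by 0.66 to 0.70 over the 12451 bright ones, and the controls separated the same numbers, so the block was used as a batch. No pair of replicate arrays was the same file: at most 0.172% of values were identical. Arrays give no counts, and their number limits the precision. Promoters were searched with Python 3.11.15.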

Additional observations from a re-analysis of the deposited data

Results flagged for a closer look

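The dimmer probe set of MBTPS2 (206473_at) was below both untreated arrays on both 8 h arrays (75.2 and 90.2, against 136.2 and 166) and above both of them on both 3 h arrays (270.3 and 174.6). The difference between 8 h and 3 h was -1.40 on the log2 scale (95% interval -2.46 to -0.34). It was tested directly and did not pass (adjusted p = 0.590 in limma and 0.160 with the replicate block; unadjusted p = 0.0160 in limma). The brighter probe set of the gene (226760_at) differed by 0.35 the other way. With 2 arrays per group no array could be tested as an outlier.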

How the results depend on the processing

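Of the 8 genes, 1 was called higher at 8 h in limma. The count was 3 with the replicate block and 3 with the local pooled error test. It was 0 without the intensity trend, where no probe set of the array was called. With the mean of each gene's tested probe sets it was 2 (EIF2AK3 and XBP1), but EIF2AK3 had only 1 probe set tested. At 3 h the count was 0 in limma, 1 with the replicate block, 1 with the local pooled error test and 1 with that mean. Between 8 h and 3 h it was 0 in limma and 1 with the replicate block. With the block and 1 array left out, it was 2 to 4 at 8 h, 1 to 2 at 3 h and 0 to 1 between the times. No gene of the set was called lower in limma or with the block. The cause of these differences was not tested.

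Among single probe sets, MBTPS1 201620_at changed sign at 8 h with centring on the median (0.00091). On leaving out 1 array, log2 fold changes that changed sign ranged at 8 h from -0.52 to 0.33 (MBTPS1 201620_at), -0.71 to 0.019 (MBTPS1 217543_s_at) and -0.0041 to 0.11 (MBTPS2 226760_at). At 3 h they ranged from -0.088 to 0.64 (ATF6 203952_at), -0.33 to 0.40 (ATF6 231927_at), -0.34 to 0.51 (MBTPS1 201620_at) and -0.37 to 0.057 (MBTPS1 217543_s_at). Between 8 h and 3 h they ranged from -0.13 to 0.50 (ERN1 207061_at), -0.32 to 0.65 (ATF6 217550_at), -0.40 to 0.051 (MBTPS1 201620_at), -0.55 to 0.18 (MBTPS1 217543_s_at) and -0.087 to 0.27 (XBP1 200670_at). None of these had passed the threshold. Probe sets near a signal of 100 are near the background of the arrays, which limits the values of 207061_at, 242021_at, 206473_at and 203168_at. Of these, 242021_at, 206473_at and 203168_at had their highest signal on Tg 3 h replicate 1, the array with the highest median, and 207061_at on Tg 8 h replicate 1. The part of that array's level in these values was not tested.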
